A study of Rattus norvegicus with 11 samples.

Results

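The angiopoietin and Tie genes described here are 6: the ligand genes Angpt1 and Angpt2, the receptor genes Tek (which encodes Tie2) and Tie1, the receptor phosphatase gene Ptprb (which encodes VE-PTP), and the angiopoietin-like gene Angptl4. They were chosen by name, as every probe set of the array whose annotated symbol is exactly one of these, which gave 7 probe sets for 6 of the 14217 genes measured. Ptprb has 2 probe sets, and the other genes have 1 each. A probe set is a group of short oligonucleotides on the array that together report 1 transcript.

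The samples were whole lungs of Dahl salt-sensitive rats weighing 250 to 350 g, a strain bred for its blood pressure response to salt, on 11 Affymetrix arrays. In the normoxia group (4 arrays) the rats breathed room air with vehicle, and in the hypoxia group (4 arrays) an inspired oxygen of about 9.5% with vehicle. The third group (3 arrays) was kept in the same low oxygen and given SU5416, which inhibits the receptors for vascular endothelial growth factor (VEGF). The combination is used to provoke pulmonary hypertension. Lungs were taken at 3.5 weeks after the vessels had been flushed through the pulmonary artery. The dose and timing of SU5416 and the age and sex of the rats are not given in the sources used here, and there was no group with SU5416 in room air. The labels do not say that each array comes from a separate animal, so the p-values measure only the spread between these samples. In whole lung, fewer cells of a type and less RNA per cell cannot be told apart.

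Tie2 is a receptor tyrosine kinase of endothelial cells. Angiopoietin 1, made by mural and other cells around the vessel, activates it and keeps the endothelium quiescent. Angiopoietin 2, stored and released by endothelial cells, is a context-dependent antagonist that loosens the vessel wall and permits sprouting. Tie1 has no well-established ligand of its own and forms complexes with Tie2, and VE-PTP removes phosphate from Tie2. Angptl4 shares the coiled-coil and fibrinogen-like domains but does not bind the Tie receptors. It is best known as an inhibitor of lipoprotein lipase whose gene responds to fatty acids and to hypoxia.

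Signals are log2 values, so a difference of 1 is a doubling. The threshold for a call was an adjusted p of 0.05 in limma, a linear model fitted to all 31042 probe sets together. The background level was 5.72. Of the single values of 27 control probe sets for bacterial transcripts, pooled over the arrays, 95% did not exceed it. Array medians lay between 7.80 and 8.01, and the number of arrays limits the precision. Normoxia arrays 1 and 2 stood apart: the gap between 3′ and 5′ signals of beta-actin, a sign of RNA quality, was 2.24 and 1.33 there, against 0.51 to 0.87 on the other 9 arrays. Comparisons of the members with normoxia are therefore given with and without these arrays, and those of other genes also where a value moved by over 1.5 times or changed sign. The endothelial marker list served as a check of the tissue: 18 of its 20 genes were measured, all 18 above background, Cdh5 and Robo4 having no probe set of their own name. Its mean signal lay between 11.59 and 11.72 in normoxia, 11.58 and 11.66 in hypoxia, and 11.60 and 11.63 in hypoxia with SU5416. This even mean does not show an unchanged endothelium, since its genes moved in both directions. With SU5416 against normoxia 7 of the 18 were higher and 11 lower, from 1.19 for Tm4sf1 to −0.49 for Kdr. Without normoxia arrays 1 and 2 the counts were 10 and 8. Limma called 0 of the 18, but 6 had an unadjusted p below 0.05, where 12.7% of all genes did.

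No member was called in any of the 3 comparisons. In hypoxia against normoxia limma called 0 of 7 member probe sets, with a background of 0.00644% of all probe sets. Between the SU5416 group and normoxia it again called 0 of 7 (background 0.0612%), and between the SU5416 group and hypoxia alone 0 of 7 (background 0.0258%). At an unadjusted p below 0.05 the count was likewise 0 of 7 in each comparison, where 11%, 12.4% and 7.47% of all probe sets passed. SAM, the procedure that the series' design text names, was run with the delta and fold limits given there and also returned 0 of 7 in each. It too called only a small part of all probe sets, with counts given under the processing alternatives, so its 0 of 7 adds little. These counts do not show that the genes were unchanged. The 95% confidence intervals, given with each gene, state which changes the data still allow.

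**Figure D1:**
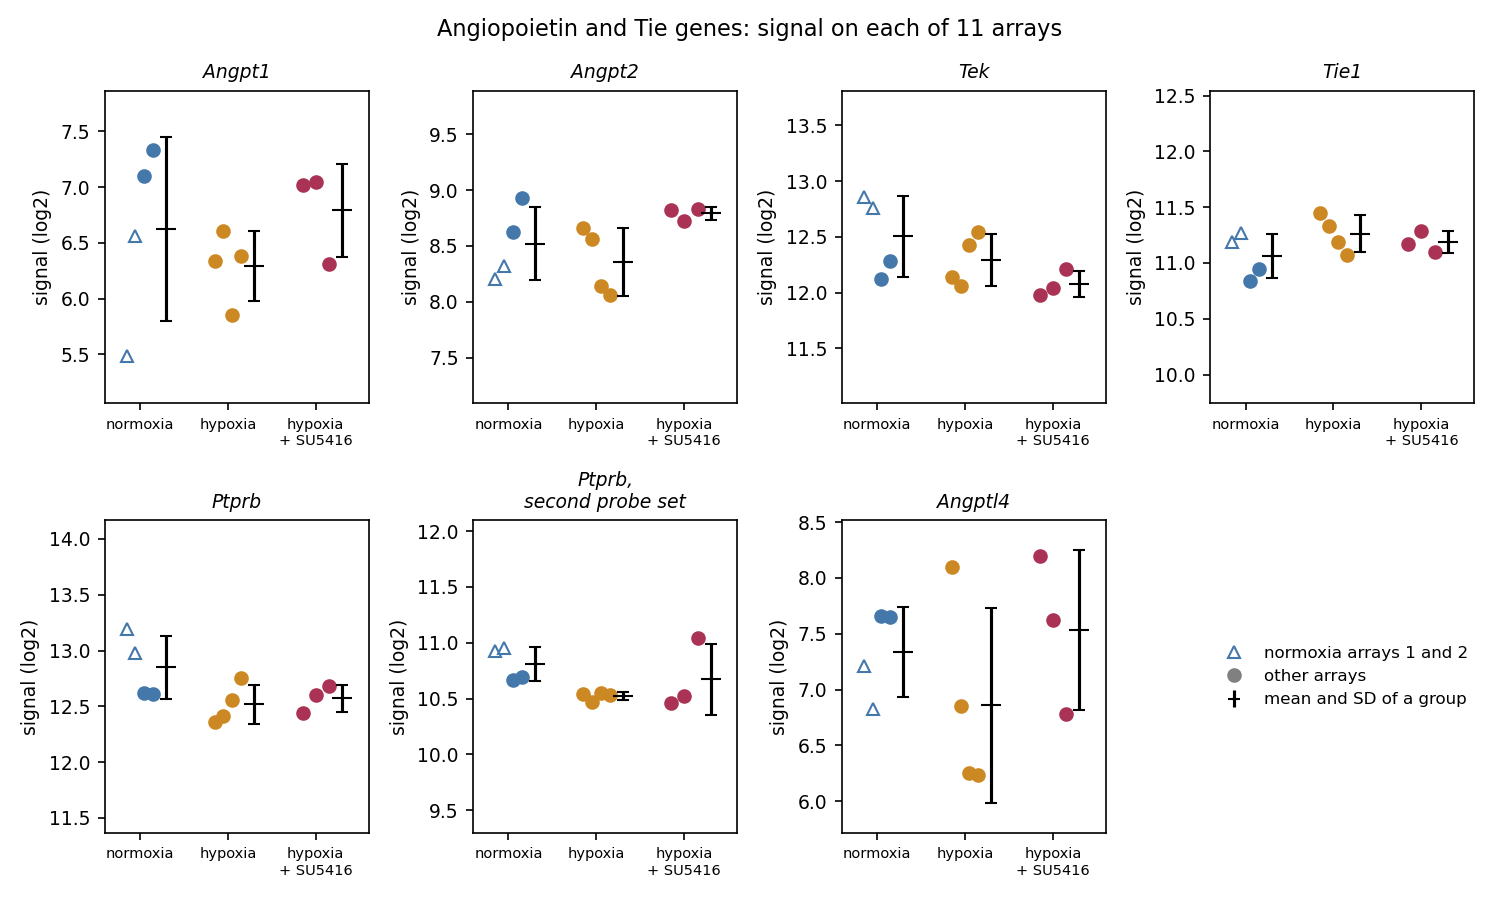
Signal (log2) of the 7 probe sets on each array; open triangles are normoxia arrays 1 and 2, filled circles the other arrays, and the black line and bar the mean and SD of a group. Each panel spans the same number of log2 units, so that the wide scatter of Angpt1 and Angptl4 and the narrow one of Tie1 can be compared by eye.

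Angpt1, the gene of the activating ligand, gave a weak signal. It read 5.49, 6.56, 7.10 and 7.34 on normoxia arrays 1 to 4, the first of these below background. In hypoxia the values were 6.34, 6.60, 5.85 and 6.38, and in hypoxia with SU5416 they were 7.02, 7.05 and 6.31. The groups overlapped in all comparisons, and the group means stood in the order hypoxia with SU5416 (6.79 ± 0.42 SD, n = 3), normoxia (6.62 ± 0.82, n = 4) and hypoxia (6.29 ± 0.32, n = 4), with no neighbours differing beyond their spread. Hypoxia differed from normoxia by −0.33 (95% interval −1.16 to 0.51, limma adjusted p = 0.787).

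Normoxia arrays 1 and 2 held the lowest Angpt1 signals of their group, and the Angpt1 difference depended on them. Without them hypoxia stood 0.93 lower (a difference of −0.93, 95% interval −1.55 to −0.31, limma adjusted p = 0.154 over all probe sets, unadjusted p = 0.00891). With the beta-actin gap of each array in the model the difference was −0.70 (limma adjusted p = 0.268). Angpt1 was thus below its normoxia mean in all 3 fits and called in none. For hypoxia with SU5416 the sign itself turned, from 0.17 over all arrays (limma adjusted p = 0.9) to −0.43 when normoxia arrays 1 and 2 were left out (limma adjusted p = 0.532). Against hypoxia alone, a comparison without normoxia samples, SU5416 stood 0.50 higher (95% interval −0.40 to 1.40, limma adjusted p = 0.848). Platelets are a source of angiopoietin 1 in blood. The mean signal of the 6 measured of 8 platelet and megakaryocyte markers ran from 7.23 to 7.79 in normoxia, 7.20 to 7.41 in hypoxia and 7.39 to 7.59 with SU5416, and 3 of the 6 were higher with SU5416 than in normoxia. Without normoxia arrays 1 and 2 only 1 of the 6 was higher, and their median difference moved from 0.04 to −0.17. Mural and connective tissue lists were higher with SU5416 than in hypoxia without overlap: the mean of the 13 pericyte and smooth muscle markers was 10.14 to 10.29 against 9.72 to 10.12, and that of the 7 measured of 8 fibroblast markers 11.81 to 11.85 against 11.25 to 11.75. The part of these cells in the Angpt1 signal was not tested.

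Angpt2, the gene of the antagonist ligand, read 8.20, 8.32, 8.62 and 8.93 in normoxia. In hypoxia it read 8.66, 8.56, 8.14 and 8.06. In hypoxia with SU5416 the 3 arrays were close together at 8.82, 8.73 and 8.83. All SU5416 arrays thus lay above all hypoxia arrays, while normoxia overlapped with both. The order of the group means was hypoxia with SU5416 (8.79 ± 0.06 SD, n = 3), normoxia (8.52 ± 0.33, n = 4) and hypoxia (8.36 ± 0.30, n = 4), and no difference in this order passed the test.

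The difference of Angpt2 between hypoxia with SU5416 and hypoxia was 0.44, or 1.35-fold (SE 0.20, 95% interval −0.02 to 0.89, limma adjusted p = 0.685). Across the array, the groups of this comparison did not overlap for 11.5% of probe sets, so such a separation was common. Among the members, 1 of 7 probe sets showed it, Angpt2. Between the SU5416 group and normoxia 0 of 7 did, where 11.9% of all probe sets did. Against normoxia, Angpt2 differed by −0.16 in hypoxia (95% interval −0.58 to 0.26, limma adjusted p = 0.79) and by 0.27 in hypoxia with SU5416 (−0.18 to 0.73, limma adjusted p = 0.62). Without normoxia arrays 1 and 2 these became −0.42 and 0.02 (limma adjusted p = 0.316 and 0.978). Besides the mural and fibroblast lists given above, the lymphatic endothelial list moved in the same direction without overlap. Its mean, with 7 of 7 genes measured and above background, was 9.39 to 9.59 in hypoxia, 9.82 to 9.93 with SU5416 and 9.59 to 9.77 in normoxia. The part of these lists in the Angpt2 difference was not tested.

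Because angiopoietin 2 opposes angiopoietin 1 at the same receptor, the log2 difference between both ligand signals was taken within each array. Its size has no meaning as a ratio of transcripts, since probe sets differ in brightness, but its change between groups shows whether the ligands moved unequally. In normoxia it was 2.72, 1.76, 1.52 and 1.59. In hypoxia it was 2.33, 1.96, 2.29 and 1.68, and with SU5416 it was 1.81, 1.68 and 2.52. The highest value belonged to normoxia array 1, where Angpt1 was below background, so that it is not an exact difference. The other 3 normoxia values overlapped with those of hypoxia and of SU5416. The means were 2.06 ± 0.30 (SD, n = 4) in hypoxia and 2.00 ± 0.45 (n = 3) with SU5416, a difference of −0.06. Without normoxia array 1 the difference from normoxia was 0.44 in hypoxia and 0.38 with SU5416, against 0.16 and 0.11 with it. Without normoxia arrays 1 and 2 the difference from normoxia was 0.51 in hypoxia and 0.45 with SU5416, both from a normoxia group of 2 arrays.

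**Figure D2:**
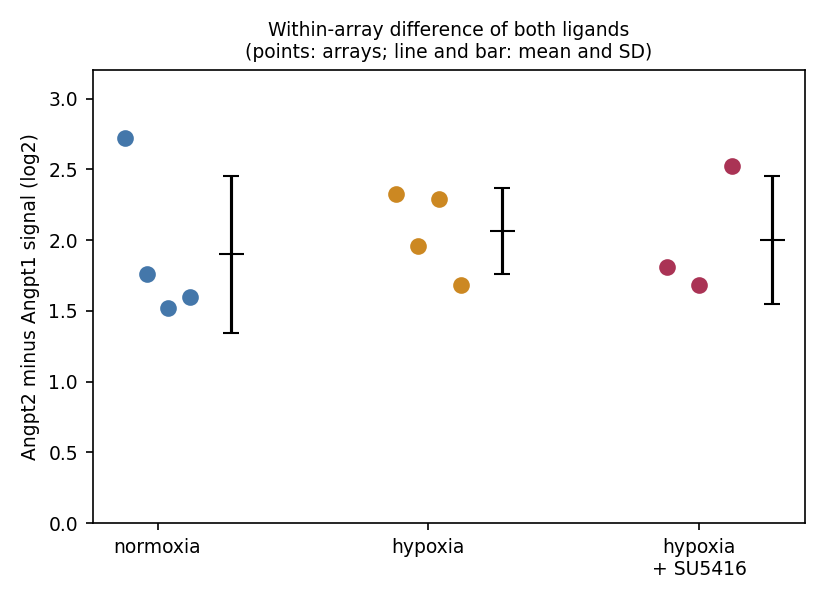
Angpt2 signal minus Angpt1 signal on the same array (log2) by group; points are arrays, and the black line and bar are the mean and SD. The 3 groups overlap; the highest point, normoxia array 1 (2.72), rests on an Angpt1 signal below background.

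Tek, the gene of Tie2, was among the brighter probe sets, with a mean signal above that of 98.8% of all probe sets. On normoxia arrays 1 to 4 it read 12.86, 12.76, 12.12 and 12.28. In hypoxia it read 12.14, 12.06, 12.43 and 12.54, and in hypoxia with SU5416 it read 11.98, 12.04 and 12.21. The group means declined from normoxia (12.51 ± 0.36 SD, n = 4) through hypoxia (12.29 ± 0.23, n = 4) to hypoxia with SU5416 (12.08 ± 0.12, n = 3), but each group overlapped with both others. The difference between hypoxia with SU5416 and normoxia was −0.43, or 1.35-fold lower (SE 0.20, 95% interval −0.87 to 0.02, limma adjusted p = 0.424). Hypoxia differed from normoxia by −0.21 (−0.63 to 0.20, limma adjusted p = 0.703), and SU5416 from hypoxia by −0.22 (−0.66 to 0.23, limma adjusted p = 0.864).

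The highest Tek signals fell on the arrays with the widest beta-actin gap, normoxia arrays 1 and 2. On normoxia arrays 3 and 4 the gaps were 0.51 and 0.6 beside Tek signals of 12.12 and 12.28. In hypoxia the gaps were 0.68, 0.78, 0.84 and 0.87 beside Tek signals of 12.14, 12.06, 12.43 and 12.54. The widest gap of each of these groups thus went with its highest Tek. With SU5416 the gaps were 0.58, 0.67 and 0.56 beside 11.98, 12.04 and 12.21, the narrowest gap going with the highest Tek. The part of RNA quality in the Tek values was not tested beyond the fits that follow. Without normoxia arrays 1 and 2 the difference between hypoxia and normoxia changed sign, to 0.09 (95% interval −0.28 to 0.47), and that between SU5416 and normoxia shrank to −0.12 (−0.52 to 0.27). With the gap in the model these differences were −0.05 and −0.18. Between SU5416 and hypoxia the fit with the gap gave −0.13 (limma adjusted p = 0.835).

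Tie1, the gene of the partner receptor, varied least among the members. Its signals were 11.19, 11.27, 10.84 and 10.95 in normoxia, 11.45, 11.33, 11.19 and 11.07 in hypoxia, and 11.17, 11.29 and 11.10 in hypoxia with SU5416. The groups overlapped throughout, in the order hypoxia (11.26 ± 0.16 SD, n = 4), hypoxia with SU5416 (11.19 ± 0.10, n = 3) and normoxia (11.06 ± 0.20, n = 4). Hypoxia stood 0.20 above normoxia (95% interval −0.09 to 0.48, limma adjusted p = 0.6), an interval that reaches a 1.4-fold higher signal. SU5416 stood 0.12 above normoxia (−0.18 to 0.43, limma adjusted p = 0.757) and differed from hypoxia by −0.07 (−0.38 to 0.24, limma adjusted p = 0.936). Without normoxia arrays 1 and 2 the difference between hypoxia and normoxia was 0.36 (95% interval 0.06 to 0.67, limma adjusted p = 0.216 over all probe sets). Normoxia had the lowest mean for Tie1 in both fits. For Tek it had the highest mean over all arrays, but stood below hypoxia once normoxia arrays 1 and 2 were left out.

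The promoter of Tie1 is shown as that of an endothelial receptor gene, the member with the narrowest intervals. The letters are the 250 bases before the annotated start, from RefSeq, build GRCr8, chr5:137304982-137305231, minus strand. Capitals mark the core of the binding motif of ETS factors, GGAA, or its reverse complement.
Tie1: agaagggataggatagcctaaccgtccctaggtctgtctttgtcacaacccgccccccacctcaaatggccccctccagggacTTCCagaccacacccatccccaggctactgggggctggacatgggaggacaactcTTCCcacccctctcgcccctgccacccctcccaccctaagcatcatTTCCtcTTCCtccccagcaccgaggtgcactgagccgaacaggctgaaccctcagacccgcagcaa
It holds 4 such cores on both strands together, and no TATAAA on the strand shown. Of 33469 promoters of this length, 93.2% hold at least 1 GGAA and 34.7% hold 4 or more, so the count is common. A match describes letters and not a site of binding. RefSeq promoters were at hand for 2 of the 6 members, Tie1 and Angptl4.

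Ptprb, the gene of the phosphatase that restrains Tie2, has a brighter and a dimmer probe set. The brighter read 13.19, 12.98, 12.62 and 12.61 in normoxia, 12.36, 12.41, 12.56 and 12.75 in hypoxia, and 12.44, 12.60 and 12.68 with SU5416. Its highest values, like those of Tek, were on normoxia arrays 1 and 2. The dimmer read 10.93, 10.95, 10.67 and 10.69 in normoxia and 10.54, 10.47, 10.55 and 10.53 in hypoxia, with no overlap between these groups. With SU5416 it read 10.46, 10.52 and 11.04, the last being the highest of all arrays.

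Both Ptprb probe sets had a lower mean in hypoxia than in normoxia, by −0.33 for the brighter (SE 0.15, 95% interval −0.67 to 0.01, limma adjusted p = 0.47) and by −0.29 for the dimmer (SE 0.14, −0.60 to 0.02, limma adjusted p = 0.485). The lack of overlap seen for the dimmer, 1 of 7 member probe sets, was found for 6.13% of all probe sets in this comparison. Without normoxia arrays 1 and 2 the differences shrank to −0.09 and −0.16 (limma adjusted p = 0.756 and 0.655). With SU5416 the differences from normoxia were −0.28 and −0.14 (limma adjusted p = 0.53 and 0.752), and from hypoxia 0.05 and 0.15 (limma adjusted p = 0.966 and 0.873). Those from normoxia were −0.04 and −0.01 once normoxia arrays 1 and 2 were left out. SU5416 array 3 set the sign for the dimmer against hypoxia, since without it the difference was −0.03.

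**Figure D3:**
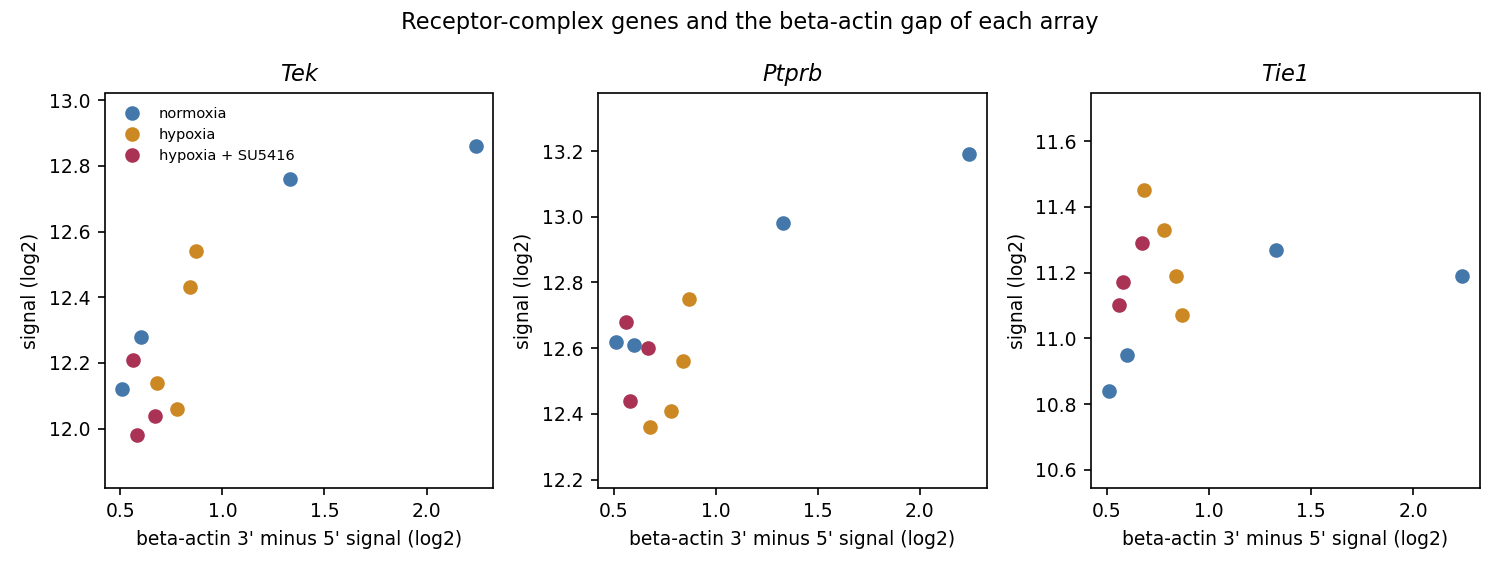
Signal (log2) of Tek, Ptprb (brighter probe set) and Tie1 on each array against that array's beta-actin gap (3′ minus 5′ signal, log2); colours mark the groups and all 3 panels span the same number of log2 units. The rightmost points are normoxia arrays 2 and 1 (gaps 1.33 and 2.24), which hold the highest Tek and Ptprb signals and not the highest Tie1 signals.

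Over the 11 arrays, 21 pairs of member probe sets were compared. The permutations shuffled all arrays without regard to group, so differences between group means enter r, rho and p. Tek and the brighter Ptprb probe set varied together most closely (Pearson r = 0.89, permutation p = 0.00048, Benjamini-Hochberg adjusted p = 0.0101; Spearman rho = 0.73, permutation p = 0.0148, adjusted p = 0.179). It was the only pair of the 21 to pass by Pearson's r, and none passed by Spearman's rho. The arrays farthest from the median of Tek are normoxia arrays 1 and 2. Without them r was 0.61 over 9 arrays (exact permutation p = 0.0824), so the relation past the threshold rests on those samples. Angpt2 ran opposite to Tek (r = −0.74, permutation p = 0.011, adjusted p = 0.0747; rho = −0.56, permutation p = 0.0765, adjusted p = 0.233), and r was −0.78 without hypoxia arrays 3 and 4 and −0.73 without normoxia arrays 1 and 2. Angpt2 ran with Angpt1 at r = 0.70 (adjusted p = 0.0747, permutation; rho = 0.53, adjusted p = 0.266), and r was 0.56 without normoxia arrays 1 and 4. Angpt1 ran opposite to Tek at r = −0.64 (adjusted p = 0.121, permutation; rho = −0.56, adjusted p = 0.233), and r was −0.51 without normoxia arrays 1 and 4. Angpt2 also ran with Angptl4, at r = 0.71 (permutation adjusted p = 0.0747) and rho = 0.59 (permutation adjusted p = 0.233). That r was 0.43 without hypoxia arrays 3 and 4 and 0.75 without normoxia arrays 1 and 2. None of these relations of Angpt1 or Angpt2 passed after adjustment. Taken as deviations from group means on all 11 arrays, r was 0.95 for Tek with the brighter Ptprb probe set. On that scale it was −0.83 for Angpt2 with Tek and −0.79 for Angpt1 with Tek. For Angpt2 it was 0.66 with Angpt1 and 0.65 with Angptl4.

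Angptl4 had the widest scatter within hypoxia. It read 7.21, 6.82, 7.66 and 7.65 in normoxia, 8.10, 6.85, 6.26 and 6.24 in hypoxia, and 8.20, 7.62 and 6.78 in hypoxia with SU5416. The highest hypoxia array thus exceeded every normoxia array, while the lowest pair lay below them all. The group means were 7.53 ± 0.71 with SU5416 (SD, n = 3), 7.34 ± 0.40 in normoxia (n = 4) and 6.86 ± 0.87 in hypoxia (n = 4), with no neighbours in this order differing beyond their spread.

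For Angptl4, known as a gene that hypoxia induces, hypoxia differed from normoxia by −0.48 (SE 0.44, 95% interval −1.46 to 0.51, limma adjusted p = 0.726). The interval reaches a mean 1.42-fold higher in hypoxia. In the fit without normoxia arrays 1 and 2 its upper end was a difference of 0.52. Without hypoxia array 1 the difference was −0.89, and without normoxia arrays 1 and 2 it was −0.79 (limma adjusted p = 0.506). SU5416 differed from normoxia by 0.20 (−0.86 to 1.26, limma adjusted p = 0.901), which turned to −0.12 without normoxia arrays 1 and 2 and to −0.14 without SU5416 array 1. SU5416 stood 0.67 above hypoxia (−0.39 to 1.73, limma adjusted p = 0.821). Fat tissue expresses Angptl4. The mean of the 6 measured of 7 adipocyte markers, of which Cidec and Lep were below background, was 6.35 to 7.34 in normoxia, 5.86 to 6.63 in hypoxia and 6.27 to 7.14 with SU5416. On hypoxia array 1, with the highest Angptl4 of its group, it was 5.99. On the SU5416 arrays it ran in the order of Angptl4, at 7.14, 6.92 and 6.27. The part of adipocyte RNA in the Angptl4 signal was not tested.

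The promoter of Angptl4 is shown because hypoxia is the exposure tested here. The letters are the 250 bases before the annotated start, from RefSeq, build GRCr8, chr7:15258682-15258931, minus strand. Capitals mark the core of the hypoxia response element, ACGTG, or its reverse complement.
Angptl4: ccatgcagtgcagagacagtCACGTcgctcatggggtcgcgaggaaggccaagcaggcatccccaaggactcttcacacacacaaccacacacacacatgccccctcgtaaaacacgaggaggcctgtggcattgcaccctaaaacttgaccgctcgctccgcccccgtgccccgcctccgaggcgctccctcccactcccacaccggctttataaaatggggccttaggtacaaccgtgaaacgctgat
There is 1 match, beginning 230 bases before the start, and 16.6% of the 33469 promoters hold at least 1. The Tie1 promoter above holds 0, which says only that these letters are not in that window. The Angptl4 window also has a TATAAA beginning 39 bases before the start, a sequence found on the given strand in 8.06% of promoters.

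**Figure D4:**
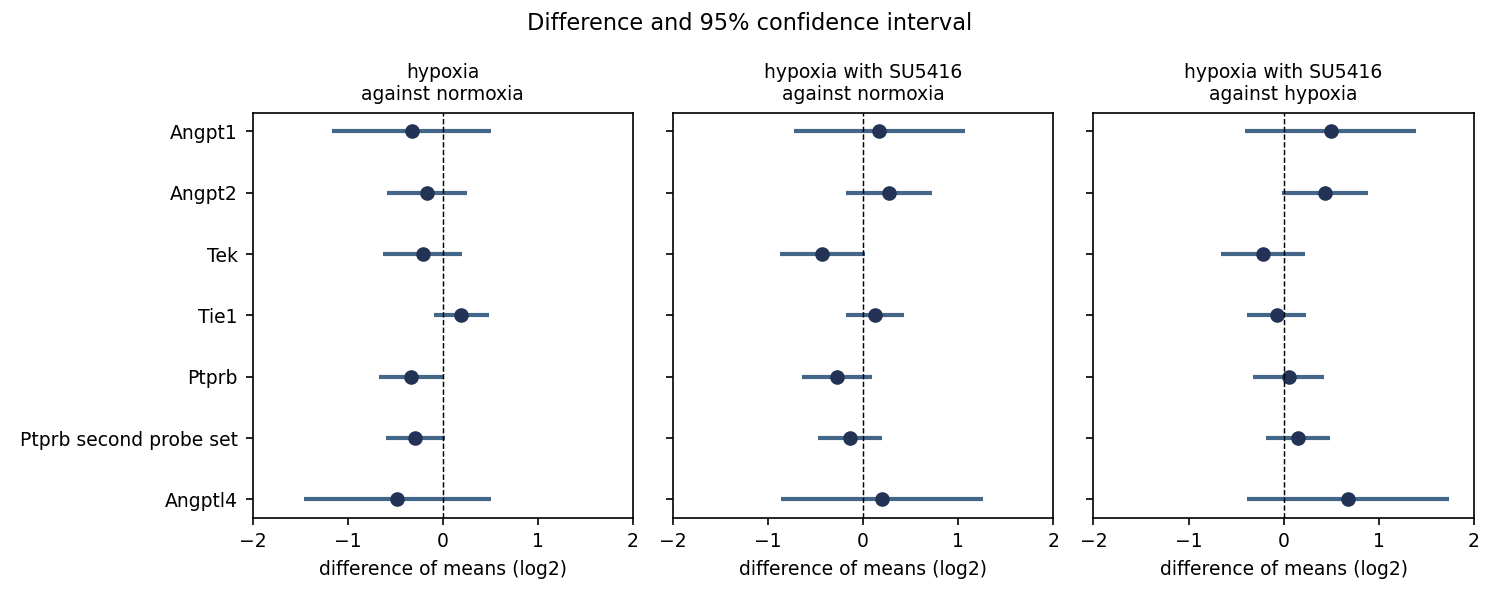
Differences of group means (log2, points) with 95% confidence intervals (lines) for the 7 probe sets in the 3 comparisons; the dashed line is no difference. Every interval includes 0; the widest are those of Angptl4 and Angpt1 and the narrowest those of Tie1.

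Each member was also compared with the 12677 other genes whose brightest probe set was above background, by Pearson's r over the 11 arrays, as a description of likeness only. For Angpt1 the most alike were Nkiras2 (0.95), Hikeshi (0.95) and Id3 (0.93), and for Angpt2 they were Cplx2 (0.90), Rnf34 (0.90) and Tmem26 (0.89). Tek was most like Arap3 (0.95), Lmbrd1 (0.95) and Synm (0.94), which fell to 0.85, 0.84 and 0.84 without normoxia arrays 1 and 2. Ptprb was most like Ivns1abp (0.94), Ocrl (0.94) and Nono (0.93), which fell to 0.81, 0.85 and 0.67 without them. Tie1 was most like Kcnk3 (0.93), Per1 (0.91) and Pfkfb3 (0.90), and these values without the same arrays were 0.94, 0.92 and 0.91. Angptl4 was most like Tgif1 (0.92), Hrct1 (0.90) and Ccnb2 (0.89). The values of Tek and Ptprb thus dropped without the arrays of wide beta-actin gap, and those of Tie1 did not. Nor was Tie1 alone in this. Without the same arrays the values were 0.94, 0.95 and 0.90 for Angpt1, 0.88, 0.93 and 0.865 for Angpt2, and 0.93, 0.90 and 0.90 for Angptl4.

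Among the other genes of Tie receptor signalling, 30 of 33 listed were measured, each by its brightest probe set. Limma called 0 of the 30 in each comparison, where the background over all genes, 1 probe set each, was 0% for hypoxia and 0.0844% for the SU5416 group, both against normoxia, and 0.0352% for the SU5416 group against hypoxia. At an unadjusted p below 0.05 there were 3, 6 and 2 of 30, where 9.59%, 12.7% and 7.3% of all genes passed. The list's median differences were 0.01, −0.01 and −0.04, beside −0.01, −0.02 and −0.01 over all genes. The first pair became 0.02 and 0.09 when normoxia arrays 1 and 2 were left out. The smallest p belonged to Nos3, the endothelial nitric oxide synthase that Tie2 signalling activates through Akt. Nos3 stood at 8.14 ± 0.11 (SD, n = 3) with SU5416, 7.73 ± 0.20 in hypoxia (n = 4) and 7.49 ± 0.08 in normoxia (n = 4), and its difference of 0.65 from normoxia had a limma adjusted p of 0.1. Next came Fgd5, an endothelial exchange factor, at 0.37, and the adaptor Shc1 at 0.34 (limma adjusted p = 0.31 and 0.326). In hypoxia alone they were the integrin subunit Itgav at 0.42, the kinase Akt1 at 0.31 and the adaptor Grb14 at 0.34 (limma adjusted p = 0.374, 0.448 and 0.448), of which Itgav was 0.27 and Akt1 0.51 without normoxia arrays 1 and 2. Angpt4, the remaining angiopoietin, stood 0.47 higher with SU5416 than in hypoxia (limma adjusted p = 0.611). Foxo1 encodes the factor that Tie2 signalling keeps out of the nucleus and that drives Angpt2. Its brightest of 3 probe sets differed from normoxia by −0.07 in hypoxia, which turned to 0.04 without normoxia arrays 1 and 2, and by 0.09 with SU5416, which became 0.19. Its other probe sets stood 0.81 and 0.71 higher with SU5416 than in normoxia and 1.07 and 0.84 higher than in hypoxia (limma adjusted p = 0.652, 0.545, 0.787 and 0.744). All 3 were thus higher with SU5416, none of them called and the dimmer ones with standard errors of 0.65 and 0.44.

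For the regulators of these genes, 26 of 26 were measured and limma called 0 in each comparison. Of all genes, 0%, 0.0844% and 0.0352% were called. At an unadjusted p below 0.05 there were 2, 4 and 1 of 26, where 9.59%, 12.7% and 7.3% of all genes passed. Hif1a, a subunit of the hypoxia-inducible factor, stood 0.45 higher in hypoxia than in normoxia (12.02 ± 0.13 against 11.57 ± 0.07 SD, n = 4 and 4, limma adjusted p = 0.259). Gata3 differed by −0.63 (limma adjusted p = 0.357) and Foxc1 by −0.46 (limma adjusted p = 0.463). With SU5416 against normoxia, the factors Gata2 and Tal1, which act at endothelial and blood cell genes, differed by −0.55 each (limma adjusted p = 0.237 and 0.285) and Gata3 by −0.54 (limma adjusted p = 0.373). Gata2 and Tal1 shrank to −0.31 and −0.29 when normoxia arrays 1 and 2 were left out. Of the 26, 18 had a lower mean than normoxia in hypoxia and 18 with SU5416, comparisons that share the normoxia arrays. Of all genes 48.9% and 47.4% were higher there. The counts were 18 and 15 without normoxia arrays 1 and 2, and the medians moved from −0.13 and −0.08 to −0.03 and −0.01.

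Around Angptl4, 19 of 22 genes of lipoprotein lipase and fatty acid sensing were measured, and limma called 0 in each comparison. Of all genes, 0%, 0.0844% and 0.0352% were called. At an unadjusted p below 0.05 there were 1, 3 and 2 of 19, where 9.59%, 12.7% and 7.3% of all genes passed. Of the 19 genes, 17 had a higher mean with SU5416 than in normoxia (median 0.16), where 47.4% of all genes did (median −0.02). The count was 12 of 19 without normoxia arrays 1 and 2. Fabp5, a fatty acid binding protein, stood at 12.81 ± 0.17 with SU5416 (SD, n = 3), 12.33 ± 0.09 in hypoxia (n = 4) and 11.51 ± 0.50 in normoxia (n = 4), 2.45-fold higher with SU5416 than in normoxia (limma adjusted p = 0.0822). In hypoxia its difference from normoxia, 0.82, was 0.45 without normoxia arrays 1 and 2, and with SU5416 it was 0.93 in that fit. Beside it the lipase maturation factor Lmf1 differed by 0.51 and the lipoprotein receptor Vldlr by 0.62 (limma adjusted p = 0.165 and 0.188). Lpl, the enzyme that Angptl4 inhibits, differed from normoxia by 0.08 in hypoxia and 0.07 with SU5416 (limma adjusted p = 0.861 and 0.865). Both were near 0 (0.03 and 0.02) once normoxia arrays 1 and 2 were left out. Pparg, a fatty acid sensor, differed by 0.35 and 0.45 (limma adjusted p = 0.629 and 0.516). Its signal was 7.79 on normoxia array 1 and between 8.78 and 8.98 on the others of that group, and without normoxia arrays 1 and 2 the differences were 0.04 and 0.14. Of the angiopoietin-like genes, 3 of 6 were measured and limma called 0. At an unadjusted p below 0.05, 0 of 3 passed in any comparison, beside the shares of all genes given above. Angptl6, the one of smallest p, differed by −0.31 between SU5416 and hypoxia (limma adjusted p = 0.706).

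**Figure D5:**
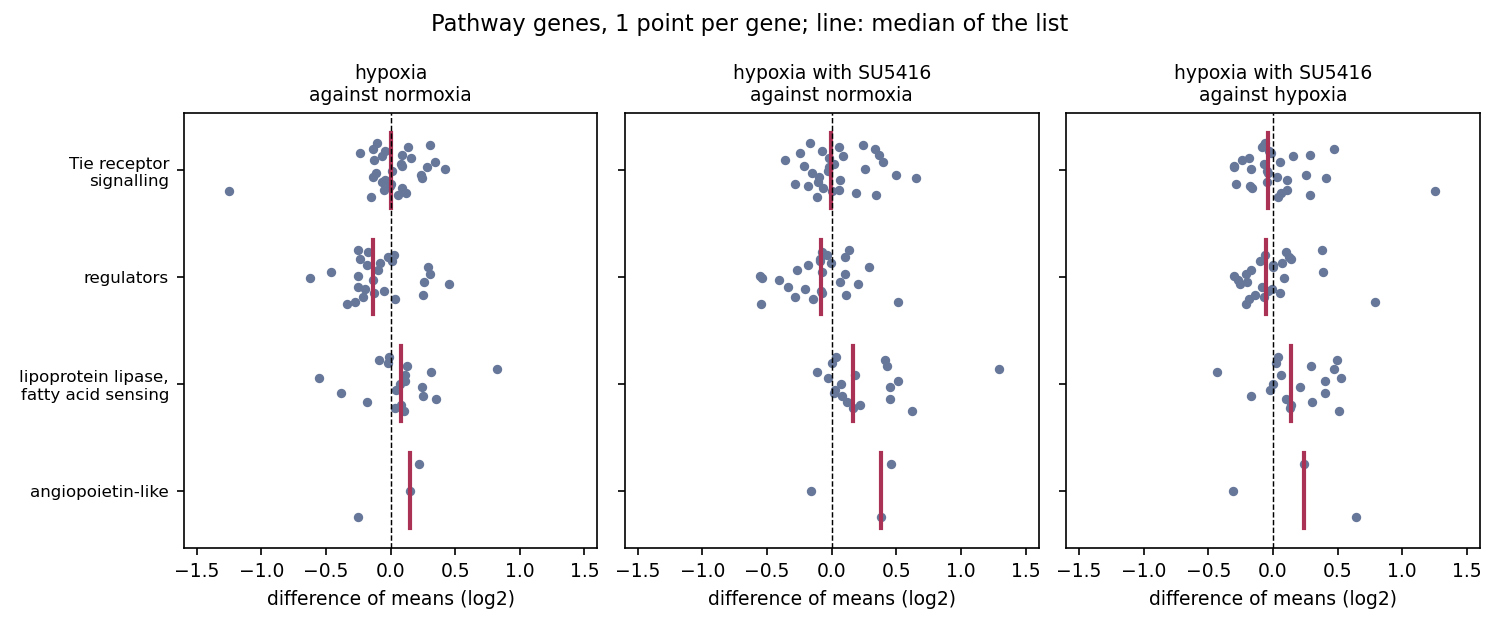
Differences of group means (log2) of the genes in the 4 pathway lists, 1 point per gene by its brightest probe set, with the list's median as a line, in the 3 comparisons. Medians of Tie receptor signalling lie at 0.01, −0.01 and −0.04; no gene shown passed the test over all probe sets.

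The VEGF receptors act in the same endothelial cells as the Tie receptors and are the targets of SU5416. The brightest Kdr probe set differed from normoxia by −0.24 in hypoxia and by −0.49 with SU5416 (limma adjusted p = 0.432 and 0.136), beside −0.21 and −0.43 for Tek. Without normoxia arrays 1 and 2 this likeness was lost, with Kdr at −0.20 and −0.44 and Tek at 0.09 and −0.12. The dimmer Kdr probe set stood at −0.065 and −0.297 over all arrays, and at −0.009 and −0.242 without normoxia arrays 1 and 2. The brightest Flt1 probe set differed by 0.24 and 0.19, neither of which passed in limma, but the 2 dimmer ones stood lower in hypoxia, by −0.53 and −0.47. With SU5416 all 3 were higher than normoxia, the dimmer ones by 0.09 and 0.38, of which the first turned to −0.34 without normoxia arrays 1 and 2. In that fit the other Flt1 values were 0.43, −0.96 and −0.62 in hypoxia and 0.37 and 0.24 with SU5416. Vegfa, the ligand gene, differed by −0.16 and −0.52 by its brighter probe set (limma adjusted p = 0.745 and 0.273) and by 0.13 and −0.01 by the other. In the fit without normoxia arrays 1 and 2 the brighter one was at 0.06 and −0.31 and the other at 0.07 and −0.06. Pecam1, a marker of all endothelium, differed by 0.27 and −0.05 (limma adjusted p = 0.494 and 0.922), which became 0.48 and 0.17 when normoxia arrays 1 and 2 were left out. Between SU5416 and hypoxia the brightest Flt1 probe set differed by −0.06 and the dimmer ones by 0.62 and 0.86 (limma adjusted p = 0.955, 0.725 and 0.314). In that comparison Kdr differed by −0.25 and −0.23, Vegfa by −0.36 and −0.13, each brighter probe set first, and Pecam1 by −0.315, none of them called. Relative to the mean of the 18 endothelial markers on the same array, Tek stood at 0.85 ± 0.30 in normoxia (SD, n = 4), 0.68 ± 0.26 in hypoxia (n = 4) and 0.46 ± 0.11 with SU5416 (n = 3). Tie1 on that scale stood at −0.59 ± 0.14, −0.36 ± 0.14 and −0.43 ± 0.09. Over all arrays the order of the group means was the same with and without reference to the endothelial markers. That sameness carries no weight, because the marker mean hardly differed between groups (11.65 in normoxia, 11.62 in hypoxia and 11.62 with SU5416). Subtracting it could therefore hardly change the order. For Tek the first place of normoxia rested on its arrays 1 and 2: the mean of the other 2 was 0.60 on this scale, below that of hypoxia. For Tie1 it was −0.71, still the lowest.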

How the data were processed

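Total RNA from whole rat lung was labelled as biotinylated cRNA and hybridised to Affymetrix arrays, 1 array per sample, per the labels' protocols. The deposited values are log2 signals of 31099 probe sets. RMA, with no version, is named per the submitters' processing notes; yet each array has a linear mean of 500 once the outer 2% at both ends are dropped, while the distributions differ, so the summarisation is uncertain. The authors' log2 values were used unchanged. After removal of 57 array controls, 31042 probe sets were fitted with limma 3.58.1 (R 4.3.3; lmFit, eBayes, 1 mean per group, 8 residual degrees of freedom, two-sided tests, Benjamini-Hochberg adjustment over all probe sets). Gene names come from GEO's platform annotation checked against RefSeq gene records (GRCr8): 20826 probe sets name 1 gene, 436 several and 9780 none; the brightest probe set on average stands for a gene. The members, lists and alternatives were chosen with earlier results of these data known. Named are all members, the list genes that were called or else the 3 of smallest p in a comparison, the 3 genes most like each member, and Kdr, Flt1, Vegfa, Pecam1, Cdh5, Lpl and Pparg where they act with a member. List genes below background were left unnamed, and Foxo1, Foxo3 and Foxo4 were added after their values were seen. Correlations used 100000 permutations. SAM was computed from its definition. The alternatives included normalization, filters, array weights, the replicate block and left-out arrays; scaling to endothelial markers and the correlation without normoxia arrays 1 and 2 were added after the data were seen. The procedure was tested on simulated data. Promoters were read and figures drawn with pandas 2.3.3, numpy 2.4.6 and matplotlib 3.10.9 under Python 3.11.15.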

Additional observations from a re-analysis of the deposited data

How the results depend on the processing

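No member was called in any of the 22 alternatives; over 456 refitted member differences the lowest limma adjusted p was 0.154, for Angpt1 in hypoxia without normoxia arrays 1 and 2. Of these differences 447 kept their sign and 9 did not: Tek in hypoxia against normoxia without normoxia arrays 1 and 2 (0.093); Angpt1 with SU5416 against normoxia under array weights (−0.12), the beta-actin gap as a covariate (−0.39), without normoxia arrays 1 and 2 (−0.43) and without normoxia array 1 (−0.21, range when 1 array is left out −0.21 to 0.41); Angptl4 in that comparison with the gap (−0.034), without normoxia arrays 1 and 2 (−0.12) and without SU5416 array 1 (range −0.14 to 0.57); and the dimmer Ptprb probe set with SU5416 against hypoxia without SU5416 array 3 (range −0.033 to 0.257). The cause was not tested.

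The number of all probe sets called moved with the setting. In hypoxia against normoxia it was 2, and it became 1 after quantile normalization, median centring, with only 2 groups fitted, with trend and robust options or with the replicate block, 0 without the dimmer probe sets, 4 with the gap, 99 without normoxia arrays 1 and 2, and 584 by SAM (1 to 14 with 1 array left out, 14 without hypoxia array 4). With SU5416 against normoxia it was 19, and it became 43 after quantile normalization, 214 without the dimmer probe sets, 58 without those below background, 8 with only 2 groups, 145 with trend and robust options, 32 with array weights, 6 with the replicate block, 108 at an adjusted p below 0.1, 11 relative to the endothelial markers (added after seeing the data) and 366 by SAM (8 to 38, the 38 without hypoxia array 4). With SU5416 against hypoxia it was 8, and it became 14 after quantile normalization or without probe sets below background, 16 with trend and robust options or without normoxia arrays 1 and 2, 24 with array weights, 18 with the gap or at an adjusted p below 0.1, and 311 by SAM (7 to 15).

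Of 162 listed genes none was called in the main fit. With SU5416 against normoxia, 6 were called without the dimmer probe sets (Fabp5, Kdr, Tm4sf1, Ccl21, Des and Adgre1), 4 with trend and robust options, 1 with the gap (Fabp5), 1 without normoxia arrays 1 and 2 (Adgre1), 2 at an adjusted p below 0.1 and 6 by SAM. SAM gave 5 in each of the other comparisons, and leaving out 1 array gave 0 to 1 in hypoxia against normoxia (Lyve1, without hypoxia array 4). The 3 or 4 arrays per group limit these counts. Angpt1 and Angptl4, the dimmest members, carry the widest errors. Replicate numbers showed no clear pairing of arrays. Of 10 same-numbered pairs, 3 had deviations correlating above 0.1 (range −0.18 to 0.21), and 3 of 11 arrays correlated best with their own number. With 3 or 4 arrays per group this cannot show whether the numbers pair arrays, so calls lost with the replicate block were not interpreted.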

Other observations

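Lymphatic endothelial genes, a vessel type that depends on angiopoietin 2, were listed as markers and are described here as values. Limma called 0 of 7 in each comparison, with 2, 4 and 2 at an unadjusted p below 0.05, where 9.59%, 12.7% and 7.3% of all genes passed. Lyve1, a hyaluronan receptor of lymphatic vessels and some macrophages, stood at 12.63 ± 0.30 in normoxia (SD, n = 4), 11.19 ± 0.68 in hypoxia (n = 4) and 11.42 ± 0.19 with SU5416 (n = 3), with differences from normoxia of −1.44 and −1.21 (limma adjusted p = 0.249 and 0.196), or −1.20 and −0.96 without normoxia arrays 1 and 2. Mmrn1, a secreted multimerin, stood at 8.29 ± 0.38, 8.25 ± 0.35 and 9.21 ± 0.09, so that the SU5416 arrays lay above both other groups (0.92 against normoxia and 0.96 against hypoxia, limma adjusted p = 0.173 and 0.409). Reln had the smallest p of the list between SU5416 and hypoxia (0.645, limma adjusted p = 0.287). Its SU5416 arrays also lay above all normoxia arrays (0.383, limma adjusted p = 0.292), while hypoxia differed from normoxia by −0.262 (limma adjusted p = 0.466). Ccl21, a chemokine that guides leukocytes into lymphatic vessels, stood 0.54 and 0.86 above normoxia in hypoxia and with SU5416 (limma adjusted p = 0.295 and 0.0925). Against normoxia the members of this list did not share a direction, with 2 of 7 higher in hypoxia and 5 of 7 with SU5416. Between SU5416 and hypoxia 6 of 7 were higher (median 0.32), where 49% of all genes were.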
